A study of Mus musculus with 4 samples.

Results

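The mitochondrial respiratory chain and the ATP synthase were described in cumulus cells (CCs) of the mouse, the somatic layer around the egg within the antral follicle, by the probes of an Illumina mouse BeadChip whose gene symbol names a nuclear-encoded subunit of complexes I to V or cytochrome c. The symbols matched were those of the Nduf, Sdh, Uqcr, Cyc1, Cycs, Cox4 to Cox8 and Atp5 families, whatever their values. In all, 73 of 18118 gene symbols matched, with 89 of 25697 probes: 30 genes and 37 probes of complex I, 3 and 6 of complex II, 7 and 7 of complex III, 1 and 2 of cytochrome c, 16 and 18 of complex IV, and 16 and 19 of complex V. The experiment compared CCs of developmentally incompetent oocytes, whose chromatin does not surround the nucleolus (NSN-CCs), with CCs of competent oocytes, whose chromatin does (SN-CCs), 2 pools of each, every pool on its own array. The donors of both groups were female B6C3F1 mice labelled as 6 weeks old, given folligon, a gonadotropin that stimulates follicle growth, 48 h earlier. Each pool joined the CCs of many oocytes, the SN-CCs pools from more of them, so a value is that of a pool and not of an animal. The labels enter the tissue as oocytes, while the titles and source names enter CCs.

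As background, complex I (NADH dehydrogenase) and complex II (succinate dehydrogenase) pass electrons to ubiquinone, complex III passes them on to cytochrome c, and complex IV (cytochrome c oxidase) passes them to oxygen. Complexes I, III and IV pump protons across the inner membrane, and complex V lets them return while it makes ATP. Complex I has core subunits, which hold the flavin and the iron-sulfur clusters, and supernumerary subunits around them. Granulosa and cumulus cells are known for their glycolysis, and the oocyte takes up the pyruvate they make and oxidises it in its own mitochondria. The subunits encoded by mitochondrial DNA were not among the probes matched here, so the values concern nuclear transcripts only.

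Many nuclear genes of the chain have promoters with sites for the factors NRF1, ETS-family proteins and YY1. The 250 bases before the start of the gene were therefore searched for GCATGCGC (NRF1), CCGGAAG (ETS) and AAGATGGC (YY1), each exact and on both strands, in RefSeq sequence of the assembly GRCm38.p6. The ETS and YY1 letters share AAG at an end and may overlap, and a gene was counted once for each of the 3 that it held. Of 72 member genes with an identifier, 59 had such a sequence. NRF1 letters were in 8 of the 59 (13.6%) and in 2.56% of 27025 genes, ETS letters in 12 (20.3%) and in 7.83%, and YY1 letters in 1 (1.69%) and in 1.83%. With the 50 bases after the start added, NRF1 letters were in 10 member genes (16.9%, against 3.05%), ETS letters in 16 (27.1%, against 9.93%) and YY1 letters in 10 (16.9%, against 3.19%), so that most YY1 letters were found only with those bases. A match is a run of letters and not a site of binding. The 3 sequences below, with the matched letters in capitals, belong to the genes described further on as lower in NSN-CCs at an unadjusted p under 0.05 whose 250 bases before the start hold a match, 3 of the 7 such genes with a sequence. They run 5′ to 3′ along the gene and end at the base before its start. Sdhd lies at chr9:50603850-50604099 and Atp5l at chr9:44920743-44920992, both on the minus strand, and Atp5h at chr11:115419920-115420169 on the minus strand.
Sdhd: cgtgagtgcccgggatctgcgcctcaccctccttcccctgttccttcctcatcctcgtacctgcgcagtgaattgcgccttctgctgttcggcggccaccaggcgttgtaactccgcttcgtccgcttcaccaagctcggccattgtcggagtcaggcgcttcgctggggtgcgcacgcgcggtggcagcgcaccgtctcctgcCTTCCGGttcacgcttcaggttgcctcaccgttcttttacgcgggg
Atp5h: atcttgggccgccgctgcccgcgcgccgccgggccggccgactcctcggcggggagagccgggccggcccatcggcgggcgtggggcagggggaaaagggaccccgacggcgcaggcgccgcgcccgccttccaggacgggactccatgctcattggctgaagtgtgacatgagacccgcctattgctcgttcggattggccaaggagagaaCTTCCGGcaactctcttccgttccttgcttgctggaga
Atp5l: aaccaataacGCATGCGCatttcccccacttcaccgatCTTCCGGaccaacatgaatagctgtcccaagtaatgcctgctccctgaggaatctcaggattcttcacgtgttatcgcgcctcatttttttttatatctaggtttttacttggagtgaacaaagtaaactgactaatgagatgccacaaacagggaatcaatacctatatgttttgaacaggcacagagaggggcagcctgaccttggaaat
The ETS letters, read on the opposite strand, were in all 3 sequences, and the NRF1 letters in that of Atp5l.

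The values below are the deposited signals in arbitrary units, which hold the background and are not scaled between arrays. A log2 fold change is NSN-CCs minus SN-CCs after background correction, quantile normalization and log2, with limma's standard error (SE), and an unadjusted p is limma's p before the adjustment over all probes. The median signal was 122 and 113 in the SN-CCs pools and 125 and 123 in the NSN-CCs pools. A background limit, the 95th percentile of 1341 chemosensory receptor probes, lay between 116 and 120, and 13635 and 11759 probes of the SN-CCs arrays and 13539 and 13744 of the NSN-CCs arrays were above it. Among probes above it on all 4 arrays the median SD between pools was 0.37 in SN-CCs and 0.072 in NSN-CCs on the log2 scale. SN-CCs replicate 2 was unlike the other 3 arrays, with the fewest probes above its limit, and results are therefore given with and without it.

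Respiratory chain genes gave signals above background in both types of CCs. Of the 89 member probes, 79 were above the limit on all 4 arrays, 8 on none and 2 on some. The 8 were the probe of Ndufs1, 1 of 3 of Sdhb, 1 of 2 of Sdhc, those of Cox6a2, Cox8b and Cox8c, 1 of 3 of Atp5j, and that of Atp5k. Ndufb4 was above it on 3 arrays and Uqcrfs1 on 1. On all arrays 8 member probes had a signal over 10000.

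No member differed between NSN-CCs and SN-CCs after adjustment over all probes. No member probe, and 0 of 25697 probes in all (0%), had an adjusted p under 0.05 in limma, and the smallest adjusted p was 0.811. With 2 pools against 2, an exact permutation test of a single value cannot give a two-sided p under 0.333. At an unadjusted p under 0.05, 10 member probes of 8 genes were lower in NSN-CCs and 0 were higher, 11.2% of the members against a background of 2.02% of all probes lower (519 probes) and 1.09% higher (281 probes). Among probes above the limit on all 4 arrays, the background lower at that p was 4.33%, against 12.7% of the 79 members. The count of 10 depended on the processing, with 0 members higher in each of the next settings. With median scaling it was 20, beside 975 of all probes lower and 169 higher. With a normexp offset of 16 it was 7, beside 412 lower and 218 higher. It was 4 with the filter on dim probes, beside 155 lower and 75 higher of the probes kept. In the authors' normalized table it was 0, beside 7 lower and 42 higher. With 1 array left out, the spread comes from the other group alone, so medians are given instead. The member median was -0.11 without SN-CCs replicate 2 and -0.20 without replicate 1, against -0.00080 and -0.064 of all probes. It was -0.14 without NSN-CCs replicate 1 and -0.22 without replicate 2, against -0.035 and -0.032. NSN-CCs lay below SN-CCs without overlap of the normalized values in 38 member probes, 42.7% of them, against 22.2% of all probes, and in 34 of the 79 (43.0%) against 28% of the probes above the limit. They lay above in 14, against a background of 16%. Among probes above the limit on all 4 arrays, the share with a log2 fold change below 0, however small, was close to its background. It was 52 of 79 members (65.8%) against 62.4%. Without regard to the limit it was 58 of 89 members (65.2%) against 56% of all probes. Markers of the oocyte were lower in NSN-CCs as well, 11 of 12 with a median of -0.40, and their part in these values was not tested. Fewer cells of a type and less RNA per cell cannot be told apart in pools.

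The median log2 fold change of the 79 members above the limit was -0.22, and that of all probes above the limit -0.13. Without SN-CCs replicate 2 these medians were -0.13 and -0.0015, and 55 of the 79 members (69.6%) were lower in NSN-CCs against 50.2% of the probes. The authors' own normalized table gave medians of -0.23 and -0.14. Median scaling of the arrays gave -0.42 and -0.097. Without SN-CCs replicate 1 the order turned, with a median of -0.24 for the members and -0.27 for all probes above the limit.

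**Figure D1:**
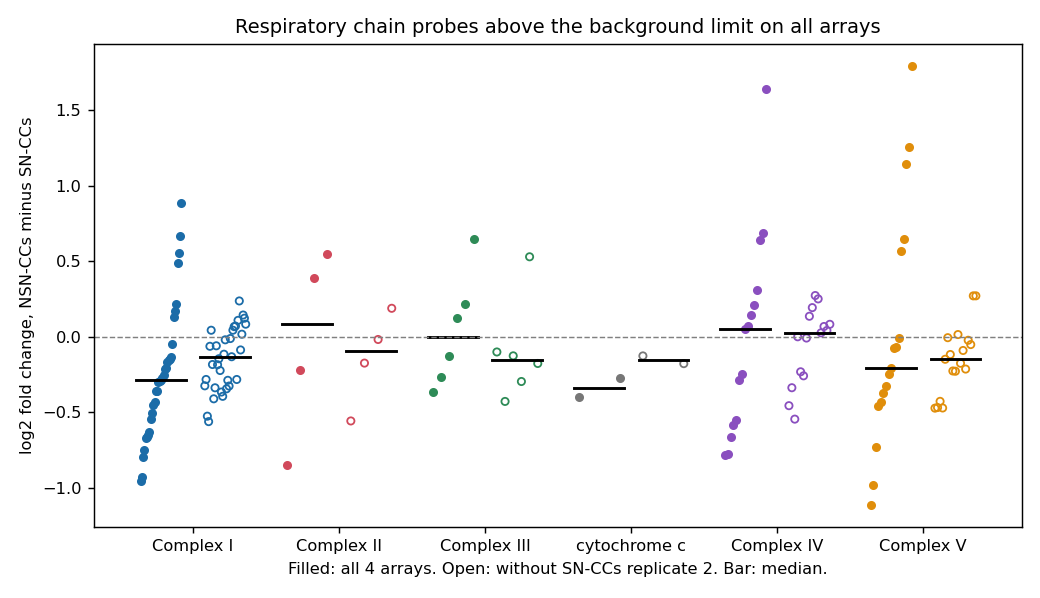
Log2 fold change, NSN-CCs minus SN-CCs, of 77 of the 79 detected probes (above the limit on all arrays), by complex. Filled points use all arrays, open points leave out SN-CCs replicate 2, and bars are medians of the points shown; the spread of the points within a complex was smaller without that array, and the probes above 1 on the vertical axis moved towards 0.

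In complex I, NSN-CCs were lower than SN-CCs on 27 of 37 probes and higher on 10. The median log2 fold change was -0.27, or -0.13 without SN-CCs replicate 2, when 26 were lower. NSN-CCs lay below SN-CCs without overlap in 18 probes (48.6%) and above in 5, while of all probes 22.2% lay below and 16% above. Over the 35 probes above the limit on all 4 arrays, 17 (48.6%) lay below, against 28% of all such probes. At an unadjusted p under 0.05 were 5 probes, all lower, of Ndufb5, Ndufa1 and Ndufs4. Ndufa4, counted here by its symbol although later work found the protein with complex IV, was at -0.36, and at -0.22 without SN-CCs replicate 2. The core and the supernumerary subunits had medians of opposite sign, although the difference between these groups was not tested.

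The supernumerary subunits had 24 of 29 probes lower in NSN-CCs, with a median of -0.36, and again 24 lower with a median of -0.18 without SN-CCs replicate 2. NSN-CCs lay below SN-CCs without overlap in 18 of the 29 (62.1%), against 22.2% of all probes and 28% of those above the limit on all 4 arrays. They lay above in 3, against 16% of all probes. Ndufb5, a subunit of the membrane arm, had the smallest p of all members. Its signal was 1043 and 1052 on the SN-CCs arrays and 648 and 655 on the NSN-CCs arrays, and its log2 fold change was -0.75 (SE 0.17). The signals of both SN-CCs pools were above those of both NSN-CCs pools, and the pools of each group were close to each other before normalization. Without SN-CCs replicate 2 its log2 fold change was -0.56.
All 9 Ndufb genes matched by symbol, which build the outer part of the membrane arm, had a log2 fold change below 0, between -0.95 and -0.050 with a median of -0.66. Without SN-CCs replicate 2, 8 of 9 were below 0, with a median of -0.28, and Ndufb10 was at 0.044. Ndufb6 and Ndufb2 had the lowest values. Ndufb6 had signals of 370.1 and 633 on the SN-CCs arrays and 276 and 293 on the NSN-CCs arrays, a log2 fold change of -0.95 (SE 0.45). Ndufb2 had signals of 356 and 621 on the SN-CCs arrays and 254 and 309 on the NSN-CCs arrays, a log2 fold change of -0.93 (SE 0.47). Their values without SN-CCs replicate 2 were -0.32 and -0.28. In both genes SN-CCs replicate 2 was far above replicate 1, and replicate 1 was above both NSN-CCs pools. A further and much brighter probe is given to Ndufb6 by the platform annotation and listed in the file under another symbol. It had signals of 6855 and 8035 on the SN-CCs arrays and 5378 and 5612 on the NSN-CCs arrays. Its log2 fold change was -0.20, and -0.10 without SN-CCs replicate 2, so the value of -0.95 is that of the dim probe. Ndufb11, listed under another symbol too and not among the 9, was at 0.31 on the probe above the limit on all arrays and at -0.36 on another, and at 0.036 and 0.090 without that array.

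Ndufs4, an accessory subunit at the NADH end whose loss causes Leigh syndrome in people, was measured by 4 probes, which are not replicates of each other. The log2 fold changes were -0.21, -0.63, -0.80 and -0.36, and 3 of the 4 had an unadjusted p under 0.05. The probe with the lowest value had signals of 2435 and 3291 on the SN-CCs arrays and 1807 and 1296 on the NSN-CCs arrays. The probe with the closest pools had signals of 6198 and 6286 on the SN-CCs arrays and 4195 and 4206 on the NSN-CCs arrays. On all 4 probes both NSN-CCs signals were below both SN-CCs signals before normalization, and after it too. Without SN-CCs replicate 2 the 4 values were -0.33, -0.41, -0.53 and -0.37. Ndufa1, a small membrane subunit needed for the assembly of complex I, had signals of 9623 and 13373 on the SN-CCs arrays and 6646 and 6574 on the NSN-CCs arrays and a log2 fold change of -0.54 (SE 0.19). Both NSN-CCs pools were close together and below both SN-CCs pools, of which replicate 2 was the higher, and without it the value was -0.34.

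The core subunits of complex I had 3 of 8 probes lower and 5 higher, at a median of 0.39, and of 0.070 without SN-CCs replicate 2, when 2 of 8 were lower. None of these 8 probes had NSN-CCs below SN-CCs without overlap, and 2 had them above, against 22.2% and 16% of all probes.
Ndufs3, a core subunit beside the iron-sulfur clusters, had signals of 3668 and 1585 on the SN-CCs arrays and 3617 and 3583 on the NSN-CCs arrays and a log2 fold change of 0.67 (SE 0.39). Ndufs8, which holds iron-sulfur clusters, had signals of 5246 and 2968 on the SN-CCs arrays and 4749.8 and 5362 on the NSN-CCs arrays and a log2 fold change of 0.55 (SE 0.31). These were the smallest p among the complex I probes higher in NSN-CCs, and in both genes SN-CCs replicate 2 was the low array, without which they were at 0.12 and 0.14. Other core probes above the limit were close to 0: -0.13 for Ndufs7, another holder of an iron-sulfur cluster, -0.16 for Ndufv1, which binds NADH and the flavin, and -0.15 for Ndufv2, its iron-sulfur partner. Without SN-CCs replicate 2 these 3 turned to 0.071, 0.044 and 0.068. Ndufs1, the largest iron-sulfur subunit, was not above the limit on any array, with signals of 70.1 and 89.6 on the SN-CCs arrays and 91.5 and 93.5 on the NSN-CCs arrays.

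Complex II was measured by 3 genes, since no probe matched the flavoprotein gene Sdha. Of 6 probes 3 were lower and 3 higher, and their median was -0.0035 and the same without SN-CCs replicate 2. Over the 4 probes above the limit on all 4 arrays, the median was 0.088. It turned to -0.095 without SN-CCs replicate 2 and was 0.28 without replicate 1. Sdhd, a membrane anchor of the complex, had signals of 341 and 346 on the SN-CCs arrays and 220.2 and 231 on the NSN-CCs arrays and a log2 fold change of -0.85 (SE 0.24). The SN-CCs pools were both above the NSN-CCs pools. Normalization widened the gap between the SN-CCs pools, and without replicate 2 the log2 fold change was -0.56. Sdhc, the other anchor, had a probe above the limit with signals of 3193 and 3303 on the SN-CCs arrays and 2387 and 2680.1 on the NSN-CCs arrays and a log2 fold change of -0.22 (SE 0.15). Both NSN-CCs pools were below both SN-CCs pools on that probe. Sdhb, the iron-sulfur subunit, had log2 fold changes above 0 on the probes above the limit. The first had signals of 1276 and 592 on the SN-CCs arrays and 1367 and 1256 on the NSN-CCs arrays, a log2 fold change of 0.55 (SE 0.27), and the second signals of 1729 and 777 on the SN-CCs arrays and 1575 and 1516 on the NSN-CCs arrays, a log2 fold change of 0.39 (SE 0.31). On both probes SN-CCs replicate 2 was the low array, and without it they stood at 0.19 and -0.017.

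**Figure D2:**
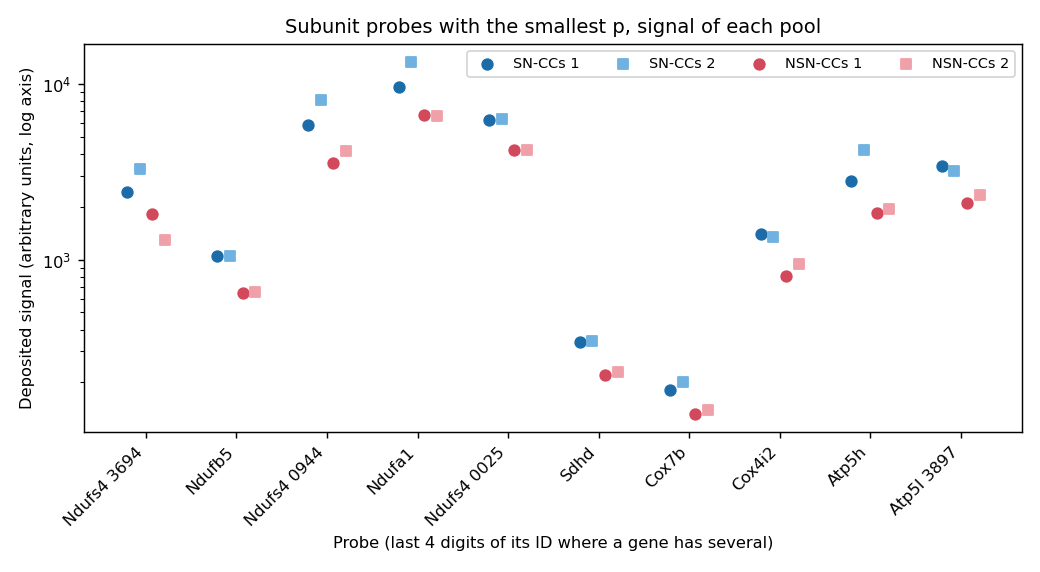
Deposited signal (arbitrary units, log axis) of each pool for the 10 subunit probes with an unadjusted p under 0.05, by gene. On each probe both red NSN-CCs points lie below both blue SN-CCs points, which the choice by p in these same arrays favours. No probe passed the adjustment over all probes (adjusted p = 0.811 for each).

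Complex III had 3 of 7 probes lower and 4 higher, with a median of 0.11, and 5 lower with a median of -0.13 without SN-CCs replicate 2. With median scaling the median was -0.14 and in the authors' table -0.15. The median of 0.11 was the value of Uqcrfs1, which was above the limit on 1 array only. Over the 6 probes above the limit on all 4 arrays, 3 were lower and the median was 0.00063. Without SN-CCs replicate 2, 5 of these 6 were lower with a median of -0.15. Uqcr11, a small subunit, had signals of 9399 and 13916 on the SN-CCs arrays and 7232 and 8029 on the NSN-CCs arrays and a log2 fold change of -0.36 (SE 0.23). Uqcrb, which helps to hold ubiquinone, had signals of 2189.9 and 1481 on the SN-CCs arrays and 1402 and 1527 on the NSN-CCs arrays and a log2 fold change of -0.27 (SE 0.19). These were the smallest p among the lower probes, and neither was past 0.05. Leaving out SN-CCs replicate 2 gave -0.10 for Uqcr11 and -0.43 for Uqcrb. Cyc1, the cytochrome that hands electrons to cytochrome c, had signals of 3005 and 782 on the SN-CCs arrays and 2359.7 and 2435 on the NSN-CCs arrays and a log2 fold change of 0.65 (SE 0.59). Its value without SN-CCs replicate 2 was -0.18, on the other side of 0. Among the core proteins, Uqcrc1 was at 0.22 and Uqcrc2 at 0.13, and with median scaling both were below 0, at -0.095 and -0.14. Without SN-CCs replicate 1 Uqcrc1 was at -0.11, and without replicate 2 Uqcrc2 was at -0.30. Uqcrfs1, the Rieske iron-sulfur protein, had signals of 93.1 and 112 on the SN-CCs arrays and 123 and 106 on the NSN-CCs arrays, of which only that of NSN-CCs replicate 1 was above its limit.

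Cytochrome c, the electron carrier between complexes III and IV, was measured on 2 probes of Cycs with signals little above the limit. The first had signals of 151 and 136 on the SN-CCs arrays and 139.7 and 130.4 on the NSN-CCs arrays and a log2 fold change of -0.27 (SE 0.15). The second had signals of 147 and 154 on the SN-CCs arrays and 125 and 148 on the NSN-CCs arrays and a log2 fold change of -0.40 (SE 0.25). The normalized NSN-CCs values were below the SN-CCs values without overlap on 1 of them, and the values without SN-CCs replicate 2 were -0.18 and -0.13.

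Complex IV had 10 of 18 probes lower and 8 higher, and a median of -0.20. NSN-CCs were below SN-CCs without overlap on 8 of the 18 (44.4%), against 22.2% of all probes. They were above without overlap on 4, against 16%. Without SN-CCs replicate 2, 9 were lower and the median was -0.0035. Over the 15 probes above the limit on all 4 arrays, 7 were lower and the median was 0.051, turned to -0.050 in the authors' table and to -0.29 with median scaling. On 5 of these 15 (33.3%) NSN-CCs were below SN-CCs without overlap, against 28% of all probes above the limit. On 4 of the 15 they were above without overlap, against 16.1%.
Cox4i1, the ubiquitous form of a subunit that carries the regulation of the complex by ATP, had signals of 17021 and 21471 on the SN-CCs arrays and 16016 and 16379.7 on the NSN-CCs arrays and a log2 fold change of 0.051 (SE 0.14). With median scaling it was at -0.29 and in the authors' table at -0.050. Cox4i2, the form known from lung and from cells at low oxygen, had signals of 1397 and 1341 on the SN-CCs arrays and 809 and 943 on the NSN-CCs arrays and a log2 fold change of -0.67 (SE 0.16). Both NSN-CCs pools were below both SN-CCs pools, and without SN-CCs replicate 2 the value was -0.54. Cox5a and Cox5b, the other large nuclear subunits, were at 0.21 and 0.14, and at -0.091 and -0.12 with median scaling.
Cox7b, a small subunit, had signals of 181 and 201 on the SN-CCs arrays and 132 and 139 on the NSN-CCs arrays and a log2 fold change of -0.78 (SE 0.29). Both SN-CCs pools were above both NSN-CCs pools, all near the limit of background, and without SN-CCs replicate 2 the value was -0.46. Cox6c, another small subunit, had signals of 7623 and 12475 on the SN-CCs arrays and 5564 and 5684 on the NSN-CCs arrays and a log2 fold change of -0.55 (SE 0.25), and -0.23 without SN-CCs replicate 2. Cox7a2l, which helps to join complexes III and IV into supercomplexes, had signals of 3896 and 345 on the SN-CCs arrays and 3757 and 3640.2 on the NSN-CCs arrays and a log2 fold change of 1.64 (SE 1.07). SN-CCs replicate 2 alone was low there, and without it the log2 fold change was 0.083.

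Tissue isoforms of complex IV separated into forms above and not above the limit. Cox6a1, the form of liver and most tissues, had its brighter probe at signals of 15859.8 and 7848 on the SN-CCs arrays and 14482 and 15559 on the NSN-CCs arrays, while Cox6a2, the form of heart and muscle, was not above the limit with 110.4 and 106 on the SN-CCs arrays and 89.8 and 104 on the NSN-CCs arrays. Cox8a, the ubiquitous form, had signals of 10381 and 13092 on the SN-CCs arrays and 9836 and 11114 on the NSN-CCs arrays. Cox8b, of heart and muscle, and Cox8c, of testis, were not above the limit on any array. Among the forms of subunit 7a both were above it: Cox7a2, of liver and most tissues, had signals of 631 and 872 on the SN-CCs arrays and 434 and 503 on the NSN-CCs arrays and a log2 fold change of -0.77 (SE 0.33), and -0.34 without SN-CCs replicate 2. Cox7a1, of heart and muscle, had signals of 415 and 683 on the SN-CCs arrays and 399.8 and 385 on the NSN-CCs arrays and a log2 fold change of -0.58 (SE 0.42), and 0.00065 without SN-CCs replicate 2. The probes of Cox6b1, the somatic form of subunit 6b, gave log2 fold changes of -0.25 and 0.31, and of -0.0077 and 0.027 without that array. Cox6b2 and Cox7b2, testis forms listed in the file under other symbols, had 1 of 3 probes above the limit, a Cox6b2 probe with signals of 178 and 209 on the SN-CCs arrays and 188 and 214 on the NSN-CCs arrays. Which isoforms were above the limit did not differ between SN-CCs and NSN-CCs in these families.

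**Figure D3:**
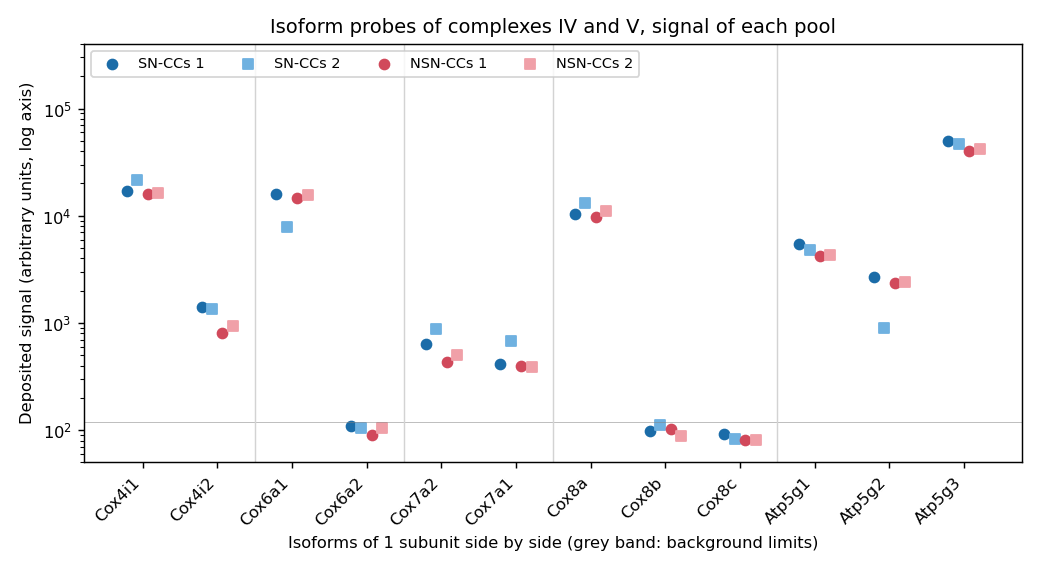
Deposited signal (arbitrary units, log axis) of each pool for isoforms of complex IV subunits and of subunit c of complex V, with the brightest probe of each gene. The grey line marks the background limits of the arrays, between 116 and 120; Cox6a2, Cox8b and Cox8c lie at or below it on all arrays, and SN-CCs replicate 2 lies below the other pools for Cox6a1 and Atp5g2.

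Complex V had 13 of 19 probes lower and 6 higher, a median of -0.17, and 14 lower with a median of -0.12 without SN-CCs replicate 2. NSN-CCs lay below SN-CCs without overlap in 6 probes (31.6%) and above in 3, while of all probes 22.2% lay below and 16% above. Over the 17 probes above the limit on all 4 arrays, 6 (35.3%) lay below, near the 28% of all such probes. Atp5h and Atp5l were lower at an unadjusted p under 0.05. Atp5h, subunit d of the peripheral stalk, had signals of 2809.7 and 4179.8 on the SN-CCs arrays and 1837 and 1935 on the NSN-CCs arrays and a log2 fold change of -0.73 (SE 0.23). Atp5l, subunit g of the membrane part, had signals of 3392 and 3208 on the SN-CCs arrays and 2095 and 2331 on the NSN-CCs arrays on its brighter probe and a log2 fold change of -0.46 (SE 0.14). Both genes had all NSN-CCs signals below all SN-CCs signals, and the SN-CCs pools of Atp5l were close together while those of Atp5h were not. Their values without SN-CCs replicate 2 were -0.43 and -0.47. The dimmer probe of Atp5l was at -0.98, and -0.47 without that array.
In the catalytic head and central stalk, Atp5b, the beta subunit that makes ATP, had signals of 45098 and 50575 on the SN-CCs arrays and 42401 and 42019 on the NSN-CCs arrays and a log2 fold change of -0.073 (SE 0.15). Atp5a1, the alpha subunit, was at -0.43 and Atp5c1, the gamma subunit, at -0.37, and they were at -0.15 and -0.0053 without SN-CCs replicate 2. Atp5c1 had signals of 10614 and 19141 on the SN-CCs arrays and 9207 and 9418 on the NSN-CCs arrays, of which SN-CCs replicate 2 was by far the highest. Atp5e, the epsilon subunit, had the lowest value of all members, with signals of 229 and 391 on the SN-CCs arrays and 164 and 166 on the NSN-CCs arrays and a log2 fold change of -1.11 (SE 0.48). Both SN-CCs pools were above both NSN-CCs pools, and SN-CCs replicate 2 was the higher, so that without it the value was -0.47. Atp5d, the delta subunit, had signals of 4204 and 935 on the SN-CCs arrays and 4218 and 4794 on the NSN-CCs arrays and a log2 fold change of 1.25 (SE 0.68). SN-CCs replicate 2 alone was low, and without it the value was 0.27.
Subunit c of the membrane rotor is encoded by Atp5g1, Atp5g2 and Atp5g3, which make the same mature protein. Their log2 fold changes were -0.067, 0.65 and -0.21, and -0.17, -0.022 and -0.23 without SN-CCs replicate 2. Atp5g3 had signals of 50078 and 46269 on the SN-CCs arrays and 40292 and 42245 on the NSN-CCs arrays, and Atp5g2 of 2699 and 894 on the SN-CCs arrays and 2341 and 2429 on the NSN-CCs arrays, with SN-CCs replicate 2 low for Atp5g2 only. Atp5j, coupling factor 6 of the peripheral stalk, had probes that disagreed. The bright probe had signals of 20306 and 21816 on the SN-CCs arrays and 14595 and 15034 on the NSN-CCs arrays and a log2 fold change of -0.25 (SE 0.13), while another had signals of 1498 and 145 on the SN-CCs arrays and 1628 and 1634 on the NSN-CCs arrays and a log2 fold change of 1.79 (SE 1.05). The probes of one gene thus parted on SN-CCs replicate 2, which was the highest array on the first and the lowest on the second, and without it they were at -0.23 and 0.27. Dmac2l, listed as Atp5s, is coupling factor B and no constitutive subunit, and was at -0.0055.

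SN-CCs replicate 2 was lower than replicate 1 by over 1 on the log2 scale in 13 member probes of 11 genes, 14.6% of the members, against 6.83% of all probes and 9.67% of those above the limit on all 4 arrays. They include Ndufc2, Ndufs3, Cyc1, Cox6a1, Cox7a2l, Atp5d, Atp5f1, Atp5g2, Atp5j and Atp5o. The 2 NSN-CCs pools differed by at most 0.20 on these probes. All 13 had a log2 fold change above 0 with all arrays, from 0.57 to 1.79, and lay between -0.21 and 0.27 without SN-CCs replicate 2, 6 of them below 0. Atp5f1, subunit b of the peripheral stalk, had signals of 2723 and 392 on the SN-CCs arrays and 2318 and 2404 on the NSN-CCs arrays. Atp5o, the OSCP subunit that joins the stalk to the head, had signals of 804 and 188 on the SN-CCs arrays and 678 and 606 on the NSN-CCs arrays. In each of these the other 3 arrays lay close together. SN-CCs replicate 2 was higher than replicate 1 by over 1 in 7 probes, of Ndufa5, Ndufb10, Ndufb2, Ndufb6, Cox7a1, Atp5e and Atp5l, and the background for that was 7.17% of probes above the limit on all 4 arrays. All 7 were lower in NSN-CCs with all arrays, from -1.11 to -0.58, and 5 were without that array. The remaining 69 probes had 51 lower with a median of -0.25, and 48 lower with a median of -0.13 without SN-CCs replicate 2. Of 11 genes with several probes above the limit on all arrays, 4 (Atp5j, Cox6b1, Ndufa8 and Ndufc1) had probes of opposite sign.

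**Figure D4:**
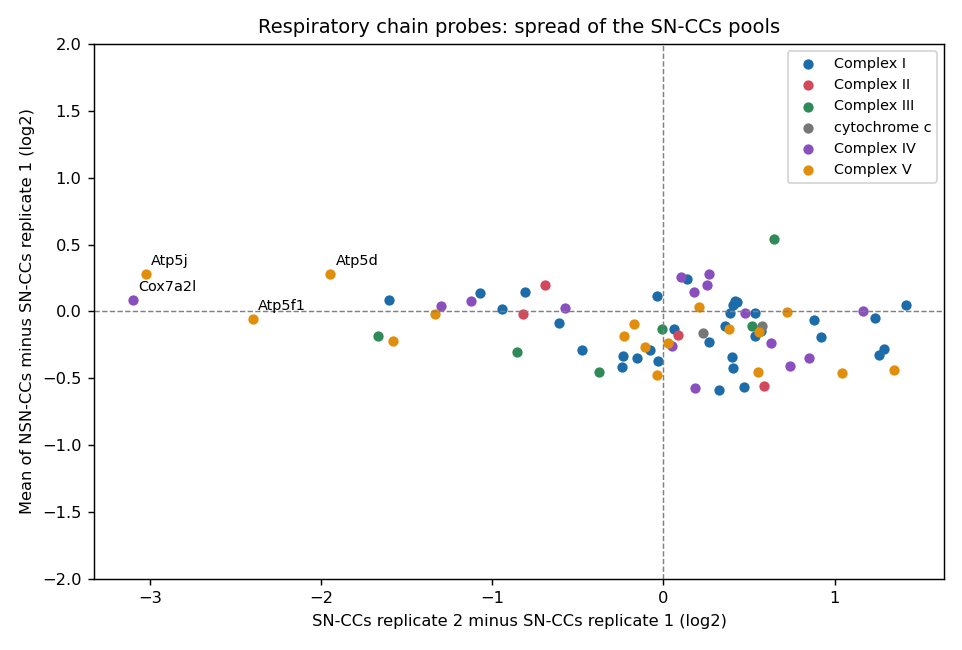
For 77 of the 79 probes above the limit on all arrays, the horizontal axis gives SN-CCs replicate 2 minus SN-CCs replicate 1 and the vertical axis the mean of NSN-CCs minus SN-CCs replicate 1, both on the log2 scale, coloured by complex. The SN-CCs pools differed by as much as -3.10 while the NSN-CCs mean stayed within 1 of SN-CCs replicate 1; probes under -1.9 on the horizontal axis are named.

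The 10 member probes at an unadjusted p under 0.05 were lower in NSN-CCs whichever SN-CCs pool was used. Their log2 fold changes were -0.85 to -0.36 with all arrays, -0.56 to -0.34 without SN-CCs replicate 2 and -1.15 to -0.34 without SN-CCs replicate 1. On all 10 the normalized NSN-CCs values lay below the SN-CCs values without overlap. Each had an adjusted p of 0.811. The 10 were chosen by their p in these same arrays, which favours probes with both SN-CCs pools above both NSN-CCs pools. Their shared direction and lack of overlap thus follow largely from the choice and are no separate evidence of a difference.

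Subunits that the file lists under other symbols were counted apart. The 11 genes and 16 probes had 10 lower and 6 higher with a median of -0.26, and 0 at an unadjusted p under 0.05. Uqcr10, a small subunit of complex III, was at -0.52 on both probes (SE 0.19 and 0.21), and at -0.29 and -0.28 without SN-CCs replicate 2. Ndufv3, an accessory subunit of complex I near the flavin, was at -0.58, 0.29 and -0.68, and without that array at -0.20, 0.019 and -0.26.

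Other mitochondrial genes were taken from lists. With all arrays, the share of probes lower in each was near its background. That was 56% of all probes and 62.4% of those above the limit on all 4 arrays. Of the assembly factors, which build the complexes but do not stay in them, 37 of 42 genes were measured by 54 probes, 39 of them above the limit on all arrays. NSN-CCs were lower on 31 (57.4%) and higher on 23. The median was -0.17, against -0.033 for all probes and -0.13 for probes above the limit. Without SN-CCs replicate 2, 31 were again lower, against 50.2% of all probes. With all arrays, an unadjusted p under 0.05 was reached by 4 lower probes and 1 higher of the 54. The background was 2.02% of all probes lower and 1.09% higher, and 4.33% lower among those above the limit on all 4 arrays. Sdhaf4, which helps the flavoprotein of complex II join its partner, had signals of 1569 and 1900.4 on the SN-CCs arrays and 1074 and 1023 on the NSN-CCs arrays and a log2 fold change of -0.69, and -0.45 without SN-CCs replicate 2. Cox11, which brings copper to complex IV, was at -0.50, and -0.40 without that array. Acad9, a complex I assembly factor, had a probe with signals of 323 and 179.8 on the SN-CCs arrays and 408 and 409 on the NSN-CCs arrays and a log2 fold change of 0.59, and 0.44 without that array, while its other probe was at 0.31 and turned to -0.20. The normalized values of NSN-CCs and SN-CCs did not overlap on the probes of Sdhaf4 and Cox11 and on the first of Acad9. These probes were named for their small p, which favours a lack of overlap. Of the 54, NSN-CCs lay below without overlap on 19 (35.2%) and above on 10, against 22.2% and 16% of all probes. Next among the higher was a probe of Ndufaf7, a methyltransferase that acts on complex I, at 0.33 and not above the limit on any array, and its other probes were at 0.68 and -0.037.
In the tricarboxylic acid cycle, which feeds the chain with NADH and succinate, 18 of 18 genes were measured by 23 probes, 12 lower (52.2%) and 11 higher with a median of -0.11. Without SN-CCs replicate 2, 15 of the 23 were lower, against 50.2% of all probes. With all arrays, NSN-CCs lay below SN-CCs without overlap on 8 (34.8%) and above on 3, against 22.2% and 16% of all probes. None of these 23 was at an unadjusted p under 0.05. Among the lower, the smallest p were those of Dld, a subunit shared by dehydrogenase complexes, at -0.55, and Mdh2, the mitochondrial malate dehydrogenase, at -0.76. Leaving out SN-CCs replicate 2 gave -0.24 for Dld and -0.22 for Mdh2. Among the higher they were those of 2 probes of Pdhb, a subunit of pyruvate dehydrogenase, at 0.35 and 1.26. The second of these had signals of 1418 and 191 on the SN-CCs arrays and 1534 and 1137 on the NSN-CCs arrays, with SN-CCs replicate 2 alone low, and without that array the values were 0.26 and 0.052.
The regulators of mitochondrial biogenesis had 17 of 19 genes measured by 25 probes. Of these, 14 were lower and 11 higher with a median of -0.10, and of 0.053 without SN-CCs replicate 2. Without that array 11 of the 25 were lower, against 50.2% of all probes. With all arrays, NSN-CCs lay below SN-CCs without overlap on 8 (32.0%) and above on 7, against 22.2% and 16% of all probes. Ssbp1, which binds single-stranded mitochondrial DNA, had signals of 1311 and 1307 on the SN-CCs arrays and 882 and 996 on the NSN-CCs arrays. Its log2 fold change was -0.49 (SE 0.16), and -0.35 without SN-CCs replicate 2. It was the only one of the 25 at an unadjusted p under 0.05, against 2.02% of all probes lower at that p. Next among the lower was a probe of Mterf4, which helps the mitochondrial ribosome to assemble, at -0.59, or -0.32 without that array, while its other probes were at 0.28 and 0.75. Among the higher, the smallest p was that of Twnk, the helicase of mitochondrial DNA, with signals of 334 and 79.6 on the SN-CCs arrays and 409 and 447 on the NSN-CCs arrays. SN-CCs replicate 2 was below its limit there, and the log2 fold change of 1.55 was 0.46 without it. Next came a probe of Mterf3 at 0.23 that was not above the limit on any array, while another Mterf3 probe, above it on all, was at -0.70. Tfam, which packs and transcribes that DNA, was at 0.071 and 0.053 on its probes, and Ppargc1a, a coactivator of biogenesis, was not above the limit on any array.
Other abundant mitochondrial proteins had 26 of 26 genes measured by 37 probes. Of these, 22 were lower (59.5%) and 15 higher with a median of -0.048, and 0 were at an unadjusted p under 0.05. Without SN-CCs replicate 2, 24 of the 37 were lower, against 50.2% of all probes. With all arrays, NSN-CCs lay below SN-CCs without overlap on 11 (29.7%) and above on 6, against 22.2% and 16% of all probes. Among the lower, the smallest p were those of Tomm22, of the import pore, at -0.59, or -0.31 without SN-CCs replicate 2, and of 1 probe of Etfa, which passes electrons from fatty acid oxidation, at -0.31. The other Etfa probes were at 1.42, -0.42 and 0.077. Among the higher they were those of Phb2, a prohibitin of the inner membrane, at 0.64, or 0.26 without that array, and of 1 probe of Slc25a3, the phosphate carrier, at 1.28, or 0.40 without it. The other Slc25a3 probe was at -0.24. The probes of a gene thus disagreed in these lists as they did among the subunits.

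Markers of some cell types moved with the groups or with SN-CCs replicate 2, and the part of the markers in the results was not tested. All 7 granulosa and cumulus markers were measured, 6 of them above the limit on all arrays. In NSN-CCs 6 were higher and 1 lower, at a median of 0.28, or 0.039 without SN-CCs replicate 2. Their summed signals were 125237 and 80583 on the SN-CCs arrays and 123231 and 117847 on the NSN-CCs arrays. The labelled CCs thus bore their markers, and SN-CCs replicate 2 had the lowest sum. Of 12 oocyte markers, 11 were lower in NSN-CCs, at a median of -0.40, or -0.17 without SN-CCs replicate 2. Their summed signals were 4695 and 5391 on the SN-CCs arrays and 3646 and 3704 on the NSN-CCs arrays, and Zp2, a zona pellucida protein, was not above the limit on any array. The sums of 4 measured of 5 erythroid markers were 13202 and 8929 on the SN-CCs arrays and 15199 and 15785 on the NSN-CCs arrays. For 6 of 7 leukocyte markers the sums were between 707 and 766, with Ptprc not above it. All 5 theca and stroma markers summed to between 3178 and 4511, the highest on SN-CCs replicate 2, with Col1a2 not above the limit. All 4 endothelium markers summed to between 422 and 519, the lowest on SN-CCs replicate 2, with Kdr and Cdh5 not above the limit.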

How the data were processed

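RNA of 4 pools, 2 per type of CCs, was hybridised to Illumina mouse BeadChips and read with BeadStudio (version 3 in the submitters' processing notes). The authors deposited the intensities of 25697 probes, linear values that still hold the background and are not scaled between arrays, and a second table of intensities after their background subtraction and rank invariant normalization, used here as an alternative. Neither holds detection p-values. Signals were corrected with normexp (offset 50), quantile normalized and taken to log2. The contrast of NSN-CCs with SN-CCs was fitted per probe in R 4.3.3 by lmFit and eBayes of limma 3.58.1, with Benjamini-Hochberg adjustment over all probes. The number of pools limits the precision. Where pools were not made from separate animals, p-values measure the spread between pools only.
The members and lists, the background limit and the Ndufb group were chosen with earlier results of these data known. Named members were, per complex, the 2 smallest p in each direction, every unadjusted p under 0.05, the core redox and catalytic subunits, tissue isoforms, and Atp5e and Cox7b; of the other lists, the 2 smallest p in each direction. Ndufa4, Ndufa8, Ndufb2, Ndufb6, Ndufb10, Ndufb11, Ndufc1, Ndufc2, Cox6c, Cox7a2l, Atp5f1, Atp5o, Dmac2l, Uqcr10, Ndufv3, Tfam and Ppargc1a were named outside this rule, after their values were seen. Some items that the rule or the marker lists would name are not reported here and are left out of the plots, but stay in the counts and medians. Groups came from the sample titles. Gene names came from the platform annotation, in which 23978 probes had 1 symbol and 1719 none, and otherwise from the file. Alternatives were no background correction, a normexp offset of 16, median scaling, the authors' table with a floor of 16, a filter on dim probes (above the limit on at least 2 arrays), array weights, the replicate number as a block, each array left out, the brightest probe per gene and, chosen after seeing the data, the addition of subunits listed under another symbol.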

Additional observations from a re-analysis of the deposited data

How the results depend on the processing

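The count of probes with an adjusted p under 0.05 was 0 under every setting that kept all 4 arrays. Leaving out 1 array at a time gave 0 to 9547 such probes: 9547 without SN-CCs replicate 1, 53 of them members, 1 without SN-CCs replicate 2, and 0 without either NSN-CCs pool. A fit with 1 SN-CCs pool takes the spread from the NSN-CCs pools and assumes that the lone pool varies like them. The median log2 fold change of complex I ranged from -0.36 to -0.13 over the arrays left out, against -0.27, that of complex II from -0.033 to 0.022, complex III from -0.13 to 0.13, cytochrome c from -0.51 to -0.15, complex IV from -0.16 to -0.0035, and complex V from -0.20 to -0.088. Median scaling gave -0.50 for complex I, -0.053 for complex II and -0.14 for complex III, and the authors' table -0.32, -0.36 and -0.15. The authors' table put the median of all 25697 probes at -0.43, with 82.5% of them lower, while members had a median of -0.31. For complex II, the filter on dim probes gave 0.088 and the brightest probe of each gene -0.22. Over its 4 probes above the limit on all arrays, the median ranged from -0.095 to 0.28 over the arrays left out. The cause of these shifts was not tested. Other medians moved by no more than the SD between pools of the list's median level, also with subunits under another symbol added. That SD was 0.25 for complex III, 0.32 for complex IV and 0.66 for complex V, larger than the median of each. A change of sign could therefore stay within it. Complex IV, at -0.20 with all probes, was at 0.051 with the filter on dim probes.

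Single probes turned direction under some settings. In the authors' table Ndufs1 was at -0.41, Sdhb (ILMN_2592389) at -0.52, Uqcrfs1 at -0.35, Cox4i1 at -0.050 and Atp5b at 0.014. With median scaling Uqcrc1 was at -0.095, Uqcrc2 at -0.14, Cox4i1 at -0.29, Cox5a at -0.091, Cox5b at -0.12 and Cox8a at -0.21. Over the arrays left out, 15 of the 51 probes named by the rule crossed 0, all through an SN-CCs pool. Their ranges were as follows: Ndufs7 -0.33 to 0.071, Ndufv1 -0.36 to 0.044, Ndufv2 -0.37 to 0.068, Sdhb (ILMN_2769065) -0.017 to 0.82, Sdhc (ILMN_1256125) -0.19 to 0.010, Cyc1 -0.18 to 1.51, Uqcrc1 -0.11 to 0.53, Uqcrc2 -0.30 to 0.56, Uqcrfs1 -0.073 to 0.31, Cox4i1 -0.034 to 0.14, Cox7a1 -1.18 to 0.00065, Cox8a -0.058 to 0.19, Atp5b -0.20 to 0.015, Atp5g1 -0.17 to 0.049 and Atp5g2 -0.022 to 1.34. Probes named outside the rule were not counted there, and some crossed 0 too, such as those of Ndufb10, Atp5f1 and Atp5o.

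Replicate numbers 1 and 2 occur in both groups, and the deviations of same-numbered pools correlated by 0.041. The crossed value of -0.041 adds nothing, since the 2 pools of a group deviate equally and in opposite directions. Whether the numbers pair the pools is not known. With the replicate number as a block, 0 probes passed the adjustment, the complex I median was again -0.27, and no call changed. The 8 member probes not above background on any array carry no usable level.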
